A study of Mus musculus with 4 samples.

Results

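The collagen genes of the mouse were examined in 4 spatially resolved transcriptomes of MC38 tumors. Members were taken by symbol, as every gene named Col, a number, the letter a and a number, which gave 44 of the 32285 genes in the tables. MC38 is a colon carcinoma line of C57BL/6 mice, and its cells had been placed under the skin of female F1 hosts aged 8 to 12 weeks. A pair of tumors came from CC075F1 hosts (C57BL/6J crossed with CC075/UncJ), which the study treats as a responder strain under anti-PD-1. The other pair came from CC080F1 hosts (C57BL/6J crossed with CC080/TauUncJ), treated as a non-responder strain. All 4 mice had received 200 µg of isotype control antibody at tumor volumes of 75 to 110 mm3, and tumors were harvested 48 h later, so no section carried a checkpoint inhibitor. Each strain was represented by 2 sections. For levels compared between strains, p-values measure the spread between sections. For regions compared within sections, they measure the spread of that difference over sections. The labels name no slide position or library batch for a section, and a batch that followed the strain cannot be told apart from it.

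RNA was captured on Visium slides, on which each spot records the RNA of the small area of tissue above it, often from several cells. The sections held 2710 to 3276 spots and 82594649 to 146460975 UMIs (unique molecular identifiers, each marking 1 captured RNA molecule). Levels are given below in CPM, for which the UMIs of a gene are scaled to the total of the section or region. Capture was from the 3′ end of the transcript, so a level counts molecules and is not divided by gene length. A spot covers several cell types, and fewer cells of a type and less RNA per cell cannot be told apart in it. Genes fixed as marks of the tumor cells (Shisal2b, Krt8, Krt18 and Epcam) were detected in all sections, at a summed 123 to 268 CPM with none at 0.

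Collagens are secreted or membrane-bound proteins built from 3 chains wound into a triple helix. Types I, III and V assemble into the fibrils that give connective tissue its tensile strength, whereas type IV forms the sheet-like network of basement membranes under endothelium and epithelium. Type VI makes beaded filaments at the border between cells and fibrils. FACIT collagens sit on the surface of fibrils, and the multiplexins Col15a1 and Col18a1 belong to basement membrane zones, the latter being the precursor of endostatin. In tumors, fibroblasts are the best known source of fibrillar collagens, and vessels the best known site of type IV.

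Promoter windows of 4 members that the results turn on are shown first, because Col4a1 and Col4a2 lie head to head and share theirs, while Col1a2 and Col3a1 encode chains of collagens that are found in the same fibrils but were distributed differently over the sections. The windows come from RefSeq (GRCm38.p6), which gave one for 35 of the 44 members. They run from 250 bases before to 50 bases after the RefSeq start of the gene. For Col1a2 that start is at 4505618, whereas GENCODE starts the gene at 4504814. In Col1a2 and Col3a1, capitals mark matches to the CCAAT box (letters CCAAT), the TATA box (letters TATAAA) and the GC box (letters GGGCGG). Both strands were searched, and CCAAT on the opposite strand appears in reverse complement. These motifs occur in 37.4%, 13.6% and 35.7% of all 32851 promoter windows, and the matches are letters only, not sites of binding. The Col1a2 window (chr6:4505368-4505667, plus strand) held 2 CCAAT and 2 GGGCGG matches and no TATAAA. Its CCAAT match in reverse complement (ATTGG) begins at position 251 of the window, which is the RefSeq start and not before it. The Col3a1 window (chr1:45311288-45311587, plus strand) held 1 TATAAA match and neither of the other motifs.
Col1a2: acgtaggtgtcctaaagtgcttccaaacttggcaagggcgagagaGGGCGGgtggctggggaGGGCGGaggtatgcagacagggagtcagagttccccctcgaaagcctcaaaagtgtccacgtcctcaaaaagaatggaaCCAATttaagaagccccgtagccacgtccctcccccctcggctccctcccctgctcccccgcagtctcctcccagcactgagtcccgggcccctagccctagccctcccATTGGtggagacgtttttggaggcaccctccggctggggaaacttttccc
Col3a1: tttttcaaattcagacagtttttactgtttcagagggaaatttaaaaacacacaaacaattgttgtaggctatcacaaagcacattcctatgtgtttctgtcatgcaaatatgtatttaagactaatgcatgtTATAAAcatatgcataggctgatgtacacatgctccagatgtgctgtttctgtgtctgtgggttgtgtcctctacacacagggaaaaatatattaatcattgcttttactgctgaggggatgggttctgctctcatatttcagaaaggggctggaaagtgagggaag
In the windows of Col4a1 (chr8:11312777-11313076, minus strand) and Col4a2 (chr8:11312555-11312854, plus strand), capitals mark the 78 bases that the windows share, read from opposite strands. The RefSeq starts of these genes lie 21 bases apart and the genes run in opposite directions. Each window held 1 CCAAT match and no TATAAA, and GGGCGG matched 1 time for Col4a1 and 3 times for Col4a2.
Col4a1: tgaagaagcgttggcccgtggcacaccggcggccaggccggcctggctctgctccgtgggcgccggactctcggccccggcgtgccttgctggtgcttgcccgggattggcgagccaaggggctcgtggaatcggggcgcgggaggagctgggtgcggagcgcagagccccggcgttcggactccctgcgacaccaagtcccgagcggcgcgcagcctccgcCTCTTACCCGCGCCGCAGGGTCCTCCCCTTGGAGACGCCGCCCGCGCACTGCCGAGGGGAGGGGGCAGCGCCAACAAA
Col4a2: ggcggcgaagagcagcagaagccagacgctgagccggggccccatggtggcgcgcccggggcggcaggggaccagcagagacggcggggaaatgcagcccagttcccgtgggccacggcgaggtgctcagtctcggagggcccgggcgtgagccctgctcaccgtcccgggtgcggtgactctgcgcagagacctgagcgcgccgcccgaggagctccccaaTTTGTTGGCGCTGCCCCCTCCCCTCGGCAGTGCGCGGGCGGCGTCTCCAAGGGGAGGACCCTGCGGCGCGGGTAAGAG

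Collagen transcripts were a small part of each tumor. All 44 genes together reached 3726 CPM in CC075F1 replicate 1, 1802 CPM in CC075F1 replicate 2, 5588 CPM in CC080F1 replicate 1 and 4019 CPM in CC080F1 replicate 2, which is 0.18% to 0.559% of all UMIs. Of the 44 genes, 16 had a mean of 10 CPM or more over the sections and are described singly, together with Col12a1, which was called in a test below. Among the other 27, 5 had means of 1 to 10 CPM (at most 9.49 CPM), 22 were below 1 CPM, and 2 of those, Col10a1 and Col19a1, had 0 UMIs in every section. A count of 0 allows up to 3 UMIs, which is 0.0363 CPM in the shallowest section, for counting error only. By class, the 11 fibrillar genes held 44.7% to 49.3% of collagen UMIs, the 6 type VI genes 26.3% to 31.3%, the 6 type IV genes 9.12% to 12.3%, and the 9 FACIT genes 6.18% to 9.63%. The order of these classes was fibrillar, then type VI, in all 4 sections, while type IV and FACIT changed places between sections.

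**Figure D1:**
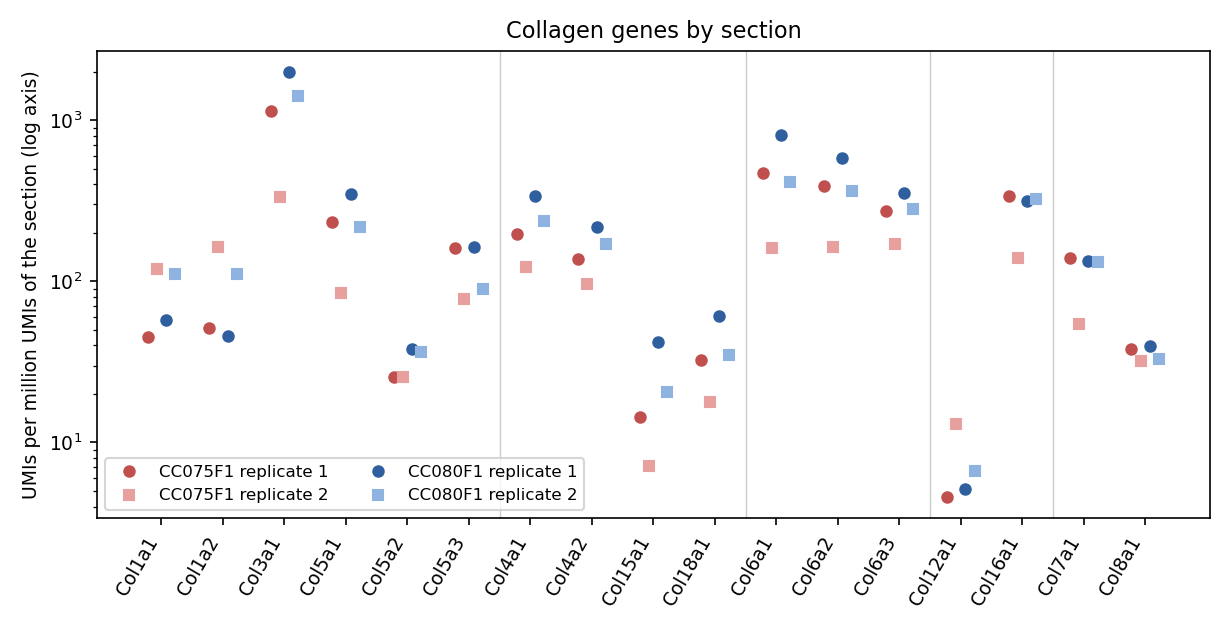
Levels of the 17 collagen genes described singly, in CPM on a log axis, with 1 point per section (red, CC075F1; blue, CC080F1; circles, replicate 1; squares, replicate 2). Grey lines separate fibrillar, basement membrane zone, type VI, FACIT and remaining collagens. Col3a1 spans 334 to 1992 CPM, and CC075F1 replicate 2 is the lowest section for most genes but the highest for Col1a1, Col1a2 and Col12a1.

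Among fibrillar collagens, Col3a1, the chain of type III collagen, supplied most UMIs in 3 sections. Its level was 1141 CPM in CC075F1 replicate 1 and 334 CPM in its replicate 2, and 1992 and 1409 CPM in the replicates of CC080F1. Pairs of values below give replicate 1 first. Both CC075F1 sections lay below both CC080F1 sections, and the 2 CC075F1 sections lay further apart than the 2 CC080F1 sections. The first of these orders, met again in genes below, held for 30.3% of all 15572 genes tested between strains. Col3a1 was 68.5% and 41.3% of fibrillar UMIs in CC075F1 and 75.1% and 71.1% in CC080F1, so a sum over fibrillar genes mostly follows Col3a1. Col1a1 and Col1a2, the chains of type I collagen, were ordered otherwise. Col1a1 (chromosome 11, 94936224 to 94953042, GRCm38) was at 45 and 119 CPM in CC075F1 and 57.7 and 111 CPM in CC080F1. Col1a2 was at 51.3 and 164 CPM in CC075F1 and 45.8 and 111 CPM in CC080F1. For both genes replicate 2 was above replicate 1 in each strain, and the strains overlapped.

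The chains of type V collagen, which is found inside type I and III fibrils, were split between these patterns. Col5a1 was at 233 and 84.8 CPM in CC075F1 and 346 and 217 CPM in CC080F1, the same order of sections as Col3a1 except that CC075F1 replicate 1 exceeded CC080F1 replicate 2. Col5a2 was at 25.6 and 25.6 CPM in CC075F1 and 38.2 and 36.4 CPM in CC080F1, without overlap. Col5a3 was at 161 and 77.2 CPM in CC075F1 and 164 and 89.9 CPM in CC080F1, where replicates differed more than strains. Of the other fibrillar genes, Col27a1, at 1.85 to 6.73 CPM, was the most detected, and Col2a1, the collagen of cartilage, did not exceed 0.16 CPM.

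Basement membrane collagens were carried by Col4a1 and Col4a2, the chains of the type IV network of most vessels. Col4a1 was at 198 and 124 CPM in CC075F1 and 339.9 and 236 CPM in CC080F1. Col4a2 was at 137 and 96.6 CPM in CC075F1 and 216 and 171 CPM in CC080F1. The 4 sections had the same order for both genes, and the strains did not overlap, as for 30.3% of all genes in this direction. Col4a5 was at 1.22 to 7.14 CPM, and Col4a3, Col4a4 and Col4a6 had 1, 13 and 4 UMIs in total. The multiplexin Col15a1 was at 14.4 and 7.11 CPM in CC075F1 and 42.1 and 20.6 CPM in CC080F1. Col18a1 was at 32.5 and 17.8 CPM in CC075F1 and 60.5 and 34.8 CPM in CC080F1, again with both CC080F1 sections on top.

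Type VI collagen was detected through Col6a1, Col6a2 and Col6a3, the chains of its main heterotrimer. Col6a1 was at 472 and 161 CPM in CC075F1 and 812 and 412 CPM in CC080F1. Col6a2 was at 389 and 163 CPM in CC075F1 and 584 and 363 CPM in CC080F1. Col6a3 varied least, at 274 and 172 CPM in CC075F1 and 354 and 281 CPM in CC080F1. Only for Col6a3 did the strains not overlap. Col6a4, Col6a5 and Col6a6 were at most 0.363 CPM in any section. The FACIT collagen Col16a1 was at 339.8 and 141 CPM in CC075F1 and 316 and 323 CPM in CC080F1, and Col7a1, which forms the anchoring fibrils of skin, at 139.7 and 54.5 CPM in CC075F1 and 133 and 131 CPM in CC080F1. In both genes 1 section, CC075F1 replicate 2, stood below the other 3. Col8a1, a short-chain collagen of vessel walls, ranged only from 32.0 to 39.6 CPM. Col12a1, a FACIT collagen of type I fibrils, was at 4.58 and 13.1 CPM in CC075F1 and 5.13 and 6.69 CPM in CC080F1.

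The strain comparison asked whether tumors in CC075F1 and CC080F1 hosts differed in collagen before any checkpoint inhibitor was given. Each response class was represented by a single strain. Response to anti-PD-1 therefore cannot be told apart from other differences between these strains. Summed fibrillar collagens were 1237 ± 606 CPM (SD, n = 2) in CC075F1 and 2317 ± 475 CPM (SD, n = 2) in CC080F1, a ratio of 0.534. Summed type IV collagens were 281 ± 83.7 CPM (SD, n = 2) in CC075F1 and 488 ± 107 CPM (SD, n = 2) in CC080F1, a ratio of 0.576. For type I alone the means were 189.9 ± 132 CPM (SD, n = 2) and 163 ± 83.7 CPM (SD, n = 2), and the ratio was 1.17. The ratios over sums have no test. CPM moved with the scaling: with library size alone the median gene of the whole table was at a log2 ratio of -0.31, and with TMM factors at -0.02. With TMM-scaled CPM the ratios were 0.636 for fibrillar and 0.704 for type IV collagens, still below 1. Without CC075F1 replicate 1 the fibrillar ratio was 0.349, and without CC075F1 replicate 2 it was 0.719.

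Gene by gene, no collagen passed the strain test. Of the 44 genes, 31 had enough UMIs to be tested, and 0 were called by edgeR's quasi-likelihood test at an adjusted p of 0.05, when 0.0899% of all 15572 genes were called. At an unadjusted p under 0.05 there were 4 collagens (Col8a2, Col14a1, Col15a1 and Col18a1), against 5.43% of all genes. DESeq2's Wald test called 1 collagen, Col15a1, at an adjusted p of 0.0416, when it called 0.366% of all genes in that direction, and limma-voom called 0. The median log2 fold change over the 31 genes, CC075F1 over CC080F1, was -0.20, beside -0.02 over all genes tested. Col15a1 was closest to the threshold, with a log2 fold change of -1.27 (SE 0.33) and an edgeR adjusted p of 0.459, which ranged from 2.01e-05 to 1 over the 13 alternatives. Without CC080F1 replicate 2, Col15a1 was called lower (edgeR adjusted p = 0.000289) and Col1a2 higher (log2 fold change 1.77, edgeR adjusted p = 0.0314), when 37 of all genes were called lower and 170 higher. Col3a1 had a log2 fold change of -1.01 (SE 0.48, edgeR adjusted p = 0.83), and Col4a1 of -0.56 (SE 0.26, edgeR adjusted p = 0.83). Col8a2, a partner of Col8a1, had the largest positive value, 2.30 (SE 0.88, edgeR adjusted p = 0.83), and rested on 144 UMIs in CC075F1 replicate 2 against 16 to 19 in the other sections.

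The 2 sections of CC075F1 were below both of CC080F1 in CPM for 9 of the 31 genes (Col3a1, Col4a1, Col4a2, Col5a2, Col6a3, Col13a1, Col14a1, Col15a1 and Col18a1), which is 29% of them and near the 30.3% of all genes. With TMM-scaled CPM these counts were 8 of 31 (25.8%) and 18.3%. The opposite order held for 1 gene in CPM, Col8a2, against 6.63% of all genes, and for 5 genes with TMM-scaled CPM, against 16.2%. Macrophage markers, summed over 7 genes, were at 4154 and 3596 CPM in CC075F1 and 2495 and 2982 CPM in CC080F1, and endothelial markers, over 10 genes, at 164 and 137 CPM in CC075F1 and 269.6 and 209.5 CPM in CC080F1, with none of either list at 0 in any section. Fibroblast markers, over 11 genes, were at 810.1 and 664 CPM in CC075F1 and 933 and 1194 CPM in CC080F1. Pericyte and smooth muscle markers, over 9 genes, were at 113 and 75.0 CPM in CC075F1 and 226 and 153 CPM in CC080F1, again with none at 0. The part of these 4 lists in the collagen values was not tested.

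**Figure D2:**
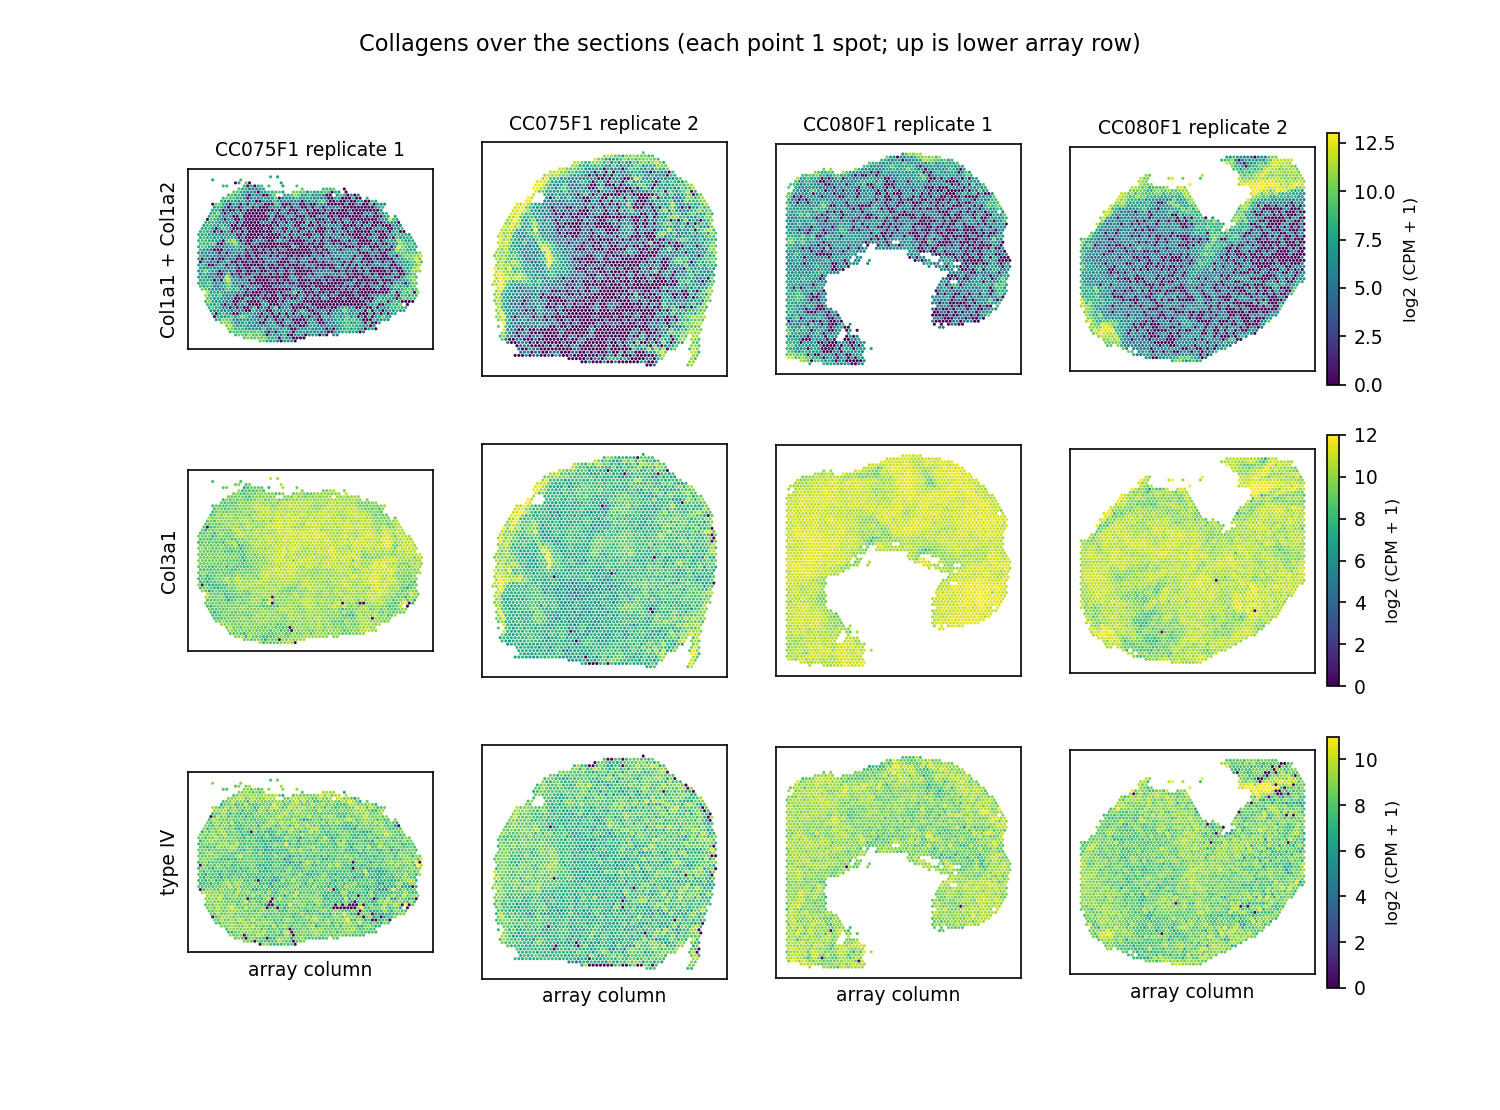
Maps of the 4 sections, with 1 point per spot at its array position and color giving log2 (CPM + 1) for Col1a1 and Col1a2 summed, for Col3a1 and for the type IV genes summed (1 color scale per row of maps). Type I collagen is bright in bands along parts of the tissue border, Col3a1 is spread over the whole tissue, and type IV is speckled with less contrast.

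Position within the tumor was then examined. A spot was counted as edge if it lay within 3 grid steps of the nearest array position without tissue, which gave 568 and 665 edge spots for CC075F1 (replicates 1 and 2) and 880 and 648 for CC080F1. Edge and interior values below follow this order of sections. Gaps inside the tissue counted as such positions, 3, 8, 29 and 2 of them, so edge and border below include spots around gaps. Where tissue ran off the array its border could not be seen, and 25, 1, 75 and 58 spots lay on the array rim. Type I collagen and its partner Col12a1 rose at the edge. Col1a1 was at 138, 519, 80.8 and 372 CPM in the edge and 30.5, 59.4, 48.3 and 61.8 CPM in the interior. The edge was above the interior in all 4 sections, least in CC080F1 replicate 1. The log2 fold change was 2.12 (SE 0.32) with an edgeR adjusted p of 0.0362. Col1a2 was at 170.4, 642, 70.0 and 404 CPM in the edge and 32.6, 92.6, 35.9 and 55.7 CPM in the interior, a log2 fold change of 2.21 (SE 0.28, edgeR adjusted p = 0.0222). Col12a1 was at 13.7, 50.6, 9.16 and 21.1 CPM in the edge and 3.14, 7.46, 3.48 and 3.98 CPM in the interior, a log2 fold change of 2.14 (SE 0.18, edgeR adjusted p = 0.0087).

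These were the 3 collagens called among 26 tested, all higher at the edge, when 0.788% of all 14345 genes were called higher and 0.0837% lower. At an unadjusted p under 0.05 there were 16 of 26, against 18.2% of all genes. With distance taken from the outer boundary alone, and not from gaps, the same 3 were called, when 239 of 14377 genes were called higher. The edge exceeded the interior in all 4 sections for 11 of 26 collagens (42.3%), against 17.5% of all genes, and lay below it in all 4 for Col4a5 alone, against 7.03% of all genes. Leaving out CC075F1 replicate 1 or CC080F1 replicate 2 ended all 3 calls, with edgeR adjusted p-values up to 0.196, when 0.00695% and 0.0209% of all genes were called higher, while the 3 log2 fold changes stayed at 1.84 or more over all 12 alternatives. Without CC080F1 replicate 1 there were 9 calls, when 4.96% of all genes were called higher, and with an edge of 5 steps Col12a1 alone was called, against 0.265% of all genes.

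Col3a1 did not follow type I. It was at 868, 693, 1740.5 and 1359 CPM in the edge and 1184, 280.1, 2095 and 1418 CPM in the interior. Its edge was higher in CC075F1 replicate 2 and lower in the other 3 sections, and the fitted log2 fold change was 0.06 (SE 0.23), with an edgeR adjusted p of 0.921. Without CC075F1 replicate 2 it was -0.27, with an edgeR adjusted p of 0.232. Within sections, the log2 ratio of edge to interior of Col1a1 exceeded that of Col3a1 by 2.03 ± 0.78 (SD, n = 4), with the difference positive in 4 of 4 sections (two-sided exact sign-flip permutation test, p = 0.125, the smallest p that 4 sections allow, also after adjustment over 6 such comparisons). The difference between Col1a1 and Col4a1 was 1.85 ± 0.88 (SD, n = 4), positive in 4 of 4 sections, with the same p of 0.125 in the exact permutation test. The gene pairs were chosen after their values were seen.

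Among the remaining fibrillar chains, Col5a2 had edge to interior log2 ratios of 1.00 and 2.30 for CC075F1 and 0.08 and 1.40 for CC080F1, with a fitted value of 1.14 (SE 0.27, edgeR adjusted p = 0.0969). Col5a1 had ratios of -0.12 and 0.84 for CC075F1 and -0.20 and 0.01 for CC080F1, close to those of Col3a1, and Col5a3 ratios between 0.19 and 0.52. The edge test called none of the basement membrane collagens. Col4a1 was at 266, 162, 349 and 266 CPM in the edge and 187, 118, 336 and 231 CPM in the interior, with a log2 fold change of 0.24 (SE 0.07, edgeR adjusted p = 0.152). Col4a2 had a log2 fold change of 0.16 (SE 0.07, edgeR adjusted p = 0.265). Col15a1 had log2 ratios of 1.55 and 2.07 for CC075F1 and 0.19 and 1.01 for CC080F1, with a fitted value of 1.10 (SE 0.23, edgeR adjusted p = 0.0749), and Col18a1 a fitted value of 0.50 (SE 0.13, edgeR adjusted p = 0.117). Both multiplexins were called by DESeq2's Wald test, which called 8 collagens higher and 1 lower (Col6a1) when it called 3.05% of all genes higher and 1.1% lower.

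Type VI collagen was nearly level between edge and interior. Col6a1 had a log2 fold change of -0.20 (SE 0.05, edgeR adjusted p = 0.134), Col6a2 of -0.10 (SE 0.06) and Col6a3 of 0.15 (SE 0.05). Col16a1 had a value of -0.14 (SE 0.06) and Col7a1 of -0.03 (SE 0.06), with edgeR adjusted p-values of 0.265 and 0.782. Col8a1 was higher at the edge by 0.51 (SE 0.12), with ratios above 0 in all 4 sections and an edgeR adjusted p of 0.086. The median log2 fold change of the 26 collagens was 0.24, beside -0.02 over all genes tested.

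**Figure D3:**
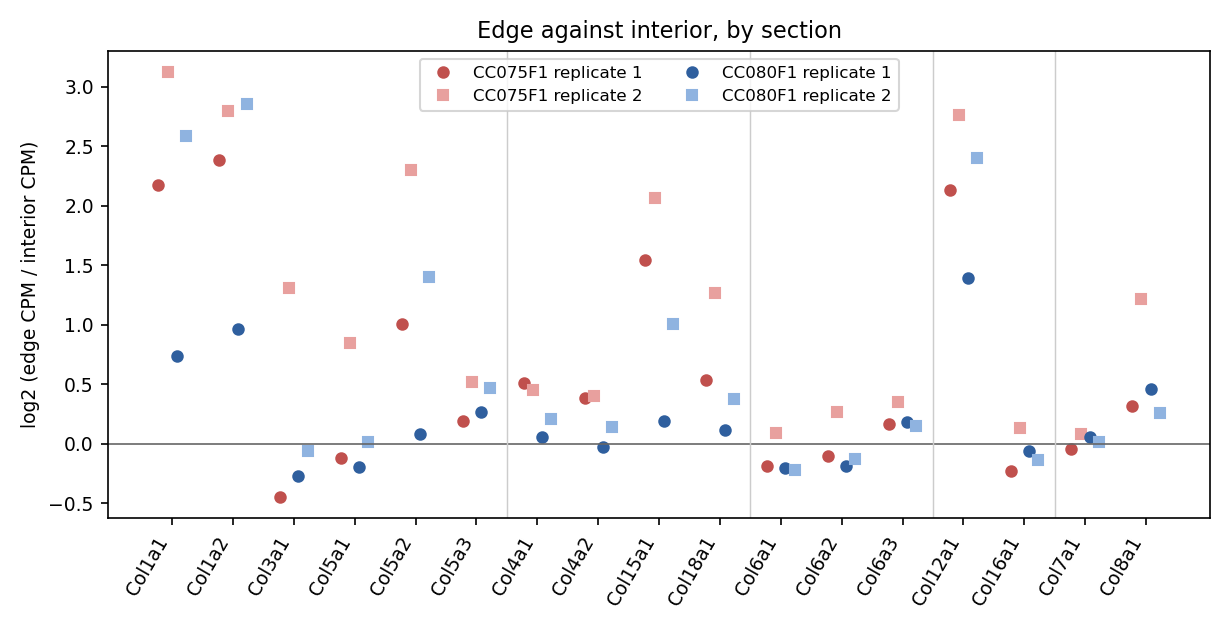
The log2 ratio of edge CPM to interior CPM for the 17 collagen genes described singly, with 1 point per section (red, CC075F1; blue, CC080F1; circles, replicate 1; squares, replicate 2) and a line at 0, where edge and interior are equal. Col1a1, Col1a2 and Col12a1 lie between 0.74 and 3.13, Col3a1 lies below 0 in 3 of 4 sections, and Col6a1, Col6a2 and Col16a1 lie between -0.23 and 0.26.

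Other features of the edge differed as well. Edge spots were shallower, with medians of 18031.5 to 30120 UMIs against 33591.5 to 46146 UMIs in the interior. Host tissue around the tumor was visible in CC075F1 replicate 2, where 40 spots, all in the edge, held at least 1% of UMIs from skin, muscle or fat markers, and the 10 skeletal muscle markers summed to 1301 CPM in its edge against 21.3 CPM in its interior and 7.27 to 24.2 CPM in the edges of the other sections. Adipocyte markers, over 8 genes, were at 3.30, 45.9, 7.98 and 45.1 CPM in the edge and 0.602, 0.628, 7.86 and 2.67 CPM in the interior. When only spots of 10000 UMIs or more and under this 1% were kept, the same 3 collagens were called, when 1.3% of all genes were called higher. They were also called without CC075F1 replicate 2 altogether, against 0.484% of all genes. The 1% limit removed spots in CC075F1 replicate 2 alone, so it left the adipocyte markers in the edge of CC080F1 replicate 2 in place. Spots under this limit are described below as without, or holding no, skin, muscle or fat. Fibroblast markers, over 11 genes and with none at 0 in any section, were at 834, 1239.7, 1038 and 1379 CPM in the edge and 806, 578, 890.4 and 1159.5 CPM in the interior. Endothelial markers were at 251 to 284 CPM in the edge and 119.7 to 264 CPM in the interior, higher at the edge in all 4 sections. The part of these cells in the edge result was not tested.

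Type I collagen fell with distance in a graded way in 3 sections, and type III in 1. Summed type I was at 465 CPM in spots 1 step from the border of CC075F1 replicate 1, at 130.1 CPM at 4 to 6 steps and at 18.7 CPM from 16 steps on. In CC075F1 replicate 2 the same bins held 1602, 314 and 45.9 CPM, and in CC080F1 replicate 2 they held 1078, 325 and 33.7 CPM. In CC080F1 replicate 1 the level was 227 CPM at 1 step and between 77.6 and 83.0 CPM from 3 to 15 steps, and its innermost bin, at 604 CPM, held only 9 spots. In that section spots lay at most 17 steps from the nearest position without tissue, against 23 to 29 in the others. It also had the most gaps inside the tissue, 29 positions, from which steps were counted too. Col3a1 ran the other way in CC075F1 replicate 1, from 927 CPM at 1 step to 1372 CPM from 16 steps on, and in CC080F1 replicate 1 from 1695 CPM to 2165 CPM at 11 to 15 steps. In CC075F1 replicate 2 it dropped from 861 to 237 CPM, and in CC080F1 replicate 2 it stayed between 1226 and 1530.3 CPM.

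Type IV collagen peaked just inside the border in 3 sections. It was highest at 2 steps in CC075F1 replicates 1 and 2 and CC080F1 replicate 2, at 464, 312 and 484 CPM, and fell to 259, 176 and 360.3 CPM in the innermost bin. In CC080F1 replicate 1 it stayed between 541 and 596 CPM out to 15 steps. Type VI collagen kept within 978 to 1104 CPM over all bins of CC080F1 replicate 2 and within 1062 to 1169 CPM in CC075F1 replicate 1. In CC075F1 replicate 2 it went from 572 CPM at 1 step and 604 CPM at 2 steps to 454 CPM in the innermost bin, and in CC080F1 replicate 1 from 1618 CPM at 1 step to 1817 CPM at 11 to 15 steps.

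Whether the edge pattern differed by strain was tested with an interaction term. Of the 26 collagens, 0 were called by edgeR, when 0.0837% of all genes were called, and 3 had an unadjusted p under 0.05 (Col11a1, Col15a1 and Col18a1), against 8.75% of all genes. DESeq2's Wald test called 2, Col11a1 and Col15a1, when it called 0.195% of all genes in that direction. For Col15a1 the edge to interior log2 fold change was 1.08 (SE 0.26) higher in CC075F1 than in CC080F1, with an edgeR adjusted p of 0.216. For Col1a1 the difference was 0.83 (SE 0.51, edgeR adjusted p = 0.685). Col11a1, a minor fibrillar chain that nucleates fibrils, had 220 UMIs in CC075F1 replicate 2 and 133 in CC080F1 replicate 1 against 9 and 17 in the other sections, with edge to interior log2 ratios of 3.38 and -1.296 in the former pair. Its interaction value of 4.05 (SE 0.61) had an edgeR adjusted p of 0.0795. Leaving out CC080F1 replicate 2 brought 7 collagens past the threshold, when 1.67% of all genes passed in that direction, and leaving out CC075F1 replicate 1 brought 2 (Col3a1 and Col11a1), when 0.563% did.

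Fibrillar and basement membrane collagens were then compared across the spots of each section. Spearman's rho between summed fibrillar and summed type IV CPM was 0.01 in CC075F1 replicate 1 and 0.42 in its replicate 2, and 0.32 and 0.30 in the CC080F1 sections, over 2709 to 3276 spots. The mean was 0.26 ± 0.17 (SD, n = 4). Spots of a section share a library and their neighbours' tissue, so these values describe the sections and carry no p. Thinning each spot to 10000 UMIs gave a mean of 0.19, and partialling out the UMIs of the spot gave 0.25. With Col3a1 left out of the fibrillar sum, a choice made after seeing the data, rho was between 0.20 and 0.43 in every section. Of the tenth of spots highest in fibrillar collagen, 17.7% to 31.1% were also in the tenth highest in type IV collagen.

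Type I and type III collagen were related differently in each section. Their rho over spots was -0.28 to 0.50, with a mean of 0.10, and of the tenth of spots highest in type I, 4.06% in CC075F1 replicate 1 and 80.8% in its replicate 2 were in the tenth highest in Col3a1, as were 14.3% and 35.0% in the CC080F1 sections. Edge spots made up 67.5%, 74.4%, 55.6% and 65.6% of the tenth highest in type I, against 20.9%, 20.3%, 31.6% and 20.4% of all spots. Of the tenth highest in Col3a1 they made up 4.06%, 65.2%, 26.9% and 25.6%.

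Some collagen genes fell into 3 groups by their pairs across spots, drawn here after their values were seen, and others joined none. Col1a1 and Col1a2, whose products share a triple helix, had the highest mean rho of all pairs, 0.57 (0.43 to 0.73 over sections). Col12a1 joined them, at 0.36 with Col1a1 and 0.38 with Col1a2, and Col5a2 at 0.28 and 0.30. Col5a2 was also at 0.23 with Col3a1. Col3a1 went instead with Col6a1 (0.50), Col5a1 (0.49) and Col6a2 (0.48), and Col6a1 with Col6a2 (0.55). Among basement membrane genes, the head to head pair Col4a1 and Col4a2 reached 0.48 (0.44 to 0.51), and Col15a1 and Col18a1 had values of 0.32 to 0.34 with either. Col6a3, at 7.68 to 11.9 UMIs per spot, had only 0.14 with Col6a1 and 0.16 with Col6a2. With Col4a1 and Col4a2 it had 0.17 and 0.18. The highest mean rho of Col5a3 was 0.17, of Col7a1 0.16 and of Col8a1 0.12. The lowest pair was Col1a2 with Col16a1, at -0.10 (-0.23 to 0.03). Values for genes with few UMIs per spot are held down by counting noise, so a low rho is no finding here.

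**Figure D4:**
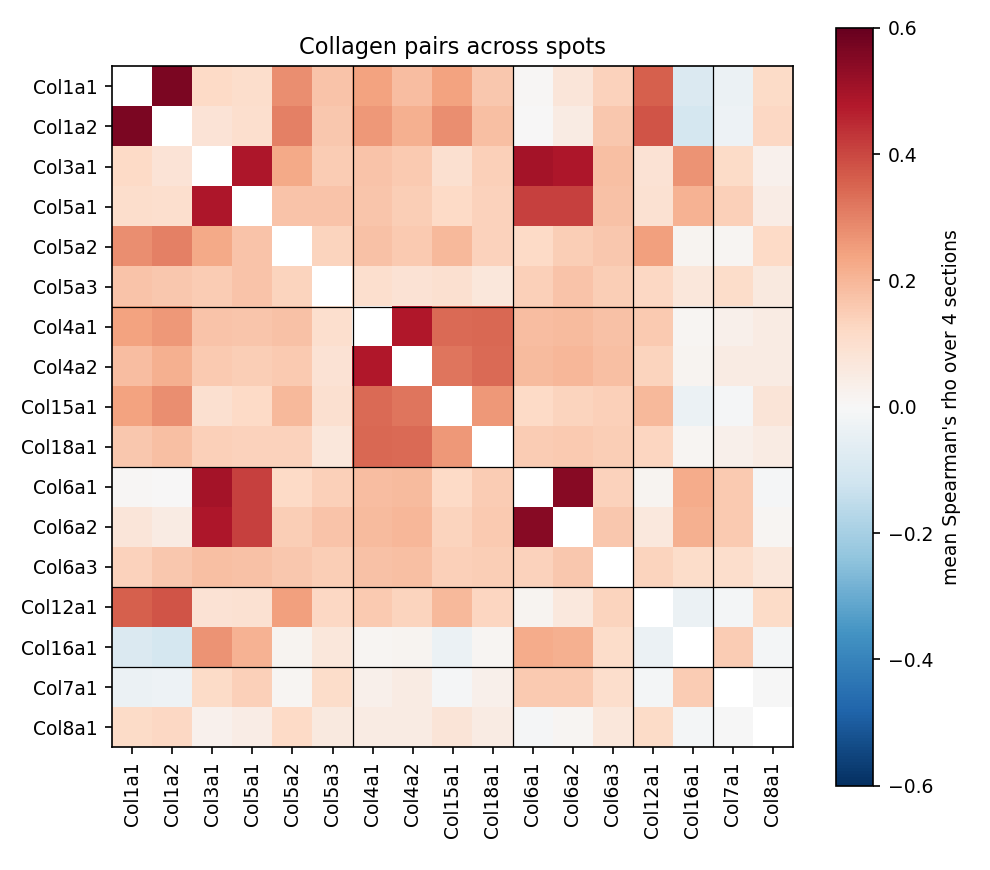
Mean over 4 sections of Spearman's rho across spots for each pair of the 17 collagen genes, colored from blue (negative) to red (positive), with the diagonal left white and black lines between classes. Dark red cells mark Col1a1 with Col1a2 (0.57), Col6a1 with Col6a2 (0.55), Col3a1 with Col6a1, Col5a1 and Col6a2 (0.48 to 0.50), and Col4a1 with Col4a2 (0.48).

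Outside the collagens, the genes most like the summed type IV collagens, by mean rho over the 4 sections among 10313 genes, were Igfbp7 (0.57), Sparc (0.53), Igfbp3 (0.52), Sparcl1 (0.46) and Mcam (0.46). Igfbp7 and Mcam are well known in vessels, and Sparc encodes a collagen-binding matrix protein. Summed type IV collagen had a mean rho of 0.61 (0.55 to 0.65) with the endothelial markers and 0.45 with those of pericytes and smooth muscle, but 0.10 with those of fibroblasts. For the summed fibrillar collagens the closest genes were Cilp (0.39), Sparc (0.37), Apoe (0.35), Tapbp (0.31) and Psap (0.30). The same measure for type I alone, taken after seeing the data, put Postn (0.53), Bgn (0.50), Sparc (0.47), Mgp (0.41) and Actb (0.39) first. Postn and Bgn belong to the list of fibroblast markers, but over whole lists type I had a mean rho of 0.28 with the fibroblast markers, 0.37 with the endothelial markers and 0.29 with those of pericytes and smooth muscle. Col3a1 had a mean rho of 0.30 with the fibroblast markers and 0.31 with the macrophage markers.

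Genes that act on collagen were taken from fixed lists. Of 32 collagen assembly genes, which fold, modify, cleave or cross-link the chains, 29 were tested and 3 rose at the edge, with none lower, when 0.788% of all genes were called higher. Lox, a lysyl oxidase that cross-links collagen, was at 2.92, 6.40, 3.14 and 8.71 CPM in the 4 sections and had a log2 fold change of 2.87 (SE 0.32, edgeR adjusted p = 0.016). Its relative Loxl1 had a value of 2.12 (SE 0.28, edgeR adjusted p = 0.0238), and Adamts2, which removes the amino-terminal propeptide of procollagen, of 1.76 (SE 0.25, edgeR adjusted p = 0.0323). All 3 were higher at the edge in 4 of 4 sections. The median of the 29 genes was 0.08. Of 8 collagen receptors tested of 9 listed, and of 13 basement membrane partners (laminins, nidogens, perlecan and agrin) tested of 15, 0 passed the edge test, with medians of 0.31 in each list. In the strain test 0 genes of these 3 lists passed, with medians of -0.11, -0.23 and -0.47. Of 11 fibroblast markers tested, 9 had positive edge values, with a median of 1.13, and 1 was called. This was Postn, a matrix protein that binds type I collagen, which rose by 1.96 (SE 0.25, edgeR adjusted p = 0.022). Of 9 pericyte and smooth muscle markers tested, all had positive values, with a median of 0.59, and 2 were called. Acta2 rose by 1.08 (SE 0.10, edgeR adjusted p = 0.00997) and Tagln by 1.82 (SE 0.26, edgeR adjusted p = 0.0329). Of these 6 calls (Lox, Loxl1, Adamts2, Postn, Acta2 and Tagln), 0 held without CC075F1 replicate 1 and 0 without CC080F1 replicate 2, where the lowest edgeR adjusted p was 0.0582 and 0.0596, and 2 held with an edge of 5 steps.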

How the data were processed

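The 4 MC38 sections were measured with Visium. The authors aligned reads to GRCm38 with GENCODE vM23 annotation in Space Ranger 1.3.1 and deposited UMI counts, not normalized, for spots that tissue covered. The authors' later scaling of spots and their shuffling of spots were not used here. Antisense or overlapping genes and near-identical copies depend on that counting.

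UMIs were summed per section, and over edge and interior spots for the edge test. Genes passing filterByExpr were fitted with edgeR 4.0.16 (R 4.3.3; TMM factors, quasi-likelihood test, Benjamini-Hochberg over all genes tested, threshold 0.05), with strain alone, or with section as a block plus region, or plus region by strain. Alternatives used limma 3.58.1 and DESeq2 1.42.0. The fits were tested on simulated counts with 200 changed genes, with a spread between sections that was set and not estimated from these data. Of 2-fold changes, the strain fit called 35.1%, the edge fit 88.6% and the interaction fit 30.4%. Of 4-fold changes they called 91.8%, 100% and 81.5%. These rates apply to the set spread alone, and where sections vary more, fewer changes would be called. In these data, edge log2 fold changes of 1.14 for Col5a2 and 1.10 for Col15a1 were not called. Neither was the strain value of 2.30 for Col8a2. A difference of 2-fold or more could thus be missed in each of the fits. Spearman correlations across spots used CPM (scipy 1.17.1) and exact permutation tests used sections. Section totals were 82594649 to 146460975 UMIs, and limits from a count of 0 use 3 UMIs and cover counting error only. All 44 identifiers had a position in GENCODE vM21 on GRCm38.

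The members, classes, lists and tests were chosen with earlier results of these data known. Genes named are collagens with a mean of 10 CPM or more or called in any fit, the 5 genes most like the summed fibrillar and type IV collagens (at least 0.1 UMI per spot in every section), and up to 4 called members per list of collagen genes and direction. Genes of the marker lists that were called are named too, after their values were seen. Of the other lists, the cartilage markers summed to 27.2 to 51.1 CPM per section and the keratinocyte markers to 26.2 to 29.9 CPM. No tested gene of those lists or of the Schwann cell list was called in any fit. The fits tested 2 of 7 keratinocyte genes, at most 2 of 5 cartilage genes and at most 4 of 5 Schwann cell genes.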

Additional observations from a re-analysis of the deposited data

Results flagged for a closer look

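Lumican, the product of Lum, is a small proteoglycan that binds collagen fibrils, and Lum stands in the list of fibroblast markers. It is given here because its edge to interior difference was tested to differ between strains: the log2 fold change was higher in CC075F1 than in CC080F1 by 2.52 (SE 0.24, edgeR adjusted p = 0.00643 over 14345 genes). Its log2 ratio of edge to interior CPM was 2.32 for CC075F1 replicate 1, 3.13 for CC075F1 replicate 2, 0.44 for CC080F1 replicate 1 and -0.16 for CC080F1 replicate 2, so both CC075F1 sections exceeded both CC080F1 sections. Its level over whole sections was 5.53 and 10.7 CPM in CC075F1 and 7.00 and 25.0 CPM in CC080F1. Of the 11 fibroblast markers, 1 was called for this term, Lum, and the median of the list was 0.46. Among 12 genes called for this term in the whole table, 4 were skeletal muscle markers (Acta1, Atp2a1, Myh1 and Myh4), whose UMIs lay mostly in the edge of CC075F1 replicate 2. The part of host tissue at that edge in the Lum value was not tested.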

How the results depend on the processing

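Leaving a section out leaves a strain with 1 section, which is then assumed to vary like the others. The number of collagens called by strain was 0; it was 3 without the filter on low counts, 1 with DESeq2's Wald test, and 0 to 2 with each section left out. The replicate number marks no known pairing (same-numbered sections deviated together with r = 0.165 over 15572 genes, in 2 pairs), and a replicate block gave 1 call, Col15a1, and 287 instead of 14 genes in the whole table. The edge count was 3; it was 7 without the filter, 9 with DESeq2, 1 with an edge of 5 steps, and 0 to 9 with each section left out. The interaction count was 0; it was 1 in spots that held 10000 UMIs or more and no skin, muscle or fat, 7 without the filter, 2 with DESeq2, and 0 to 7 with each section left out. The cause of these changes was not tested. The unfiltered fits tested more genes, and the fits with a section left out used fewer sections. The fit in spots of 10000 UMIs or more without skin, muscle or fat used fewer spots. DESeq2's Wald test, the replicate block and the edge of 5 steps kept all sections and spots. Over all genes, the strain calls (14) became 480 without the filter, 194 with DESeq2 and 40 with library size alone. The edge calls (125) became 683, 596 and 130. The interaction calls (12) became 532 without the filter and 69 with DESeq2. They became 38 in spots of 10000 UMIs or more without skin, muscle or fat. The log2 ratio of summed fibrillar collagens by strain was -0.91, and -1.52 to -0.48 with each section left out; that of type IV collagens was -0.80, and -1.14 to -0.52. The mean rho of fibrillar with type IV collagens kept its sign and stayed within 1 SD of 0.26 in all alternatives. Collagens of 10 CPM or more had at least 1042 UMIs in every section, whereas counting limits the precision of the 22 collagens below 1 CPM.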

Other observations

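Several collagens of low level had uneven counts between sections. Col14a1, a FACIT collagen of skin and tendon, was at 6.19 and 6.40 CPM in CC075F1 and 13.9 and 11.5 CPM in CC080F1, and its log2 ratio of edge to interior was 0.04 and 3.02 in CC075F1 and 0.06 and 1.06 in CC080F1, so replicate 2 of each strain had the steeper edge. Col9a3, usually known from cartilage, was at 2.59 to 10.5 CPM, above Col2a1 at 0.0341 to 0.16 CPM in every section. Col23a1, a transmembrane collagen, had 63 UMIs in CC075F1 replicate 2 against 9 to 13 in the other sections. Col17a1, the transmembrane collagen of epidermal hemidesmosomes, had 8 to 13 UMIs per section.

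Collagens also differed in how far neighbouring spots resembled each other. Moran's I over the 6 nearest spots, which is near 0 without spatial pattern, was 0.23 to 0.55 for Col1a1, 0.31 to 0.60 for Col1a2 and 0.41 to 0.67 for Col3a1, but 0.14 to 0.22 for Col4a1 and 0.05 to 0.11 for Col8a1. Few UMIs per spot lower this value, so it was not used to order genes of different levels.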
